A study of Mus musculus with 18 samples.

Results

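The genes described here are the mouse genes named Zfp and a number that were read often enough in normal liver to be followed. They were chosen by their read count: a gene named Zfp and a number, other than Zfp36, entered when the 3 control mRNA libraries together held at least 300 reads on it. This took in 127 of 357 genes with such names, out of 24539 genes counted, of which 7434 of any name reached 300 reads. The other 230 Zfp genes fell below the limit, 19 of them with no read in those libraries, and 32 genes whose Zfp number is followed by a letter were outside the rule. Just inside the limit were Zfp750 with 302 reads, Zfp772 with 306 and Zfp64 with 309, and just outside it Zfp609 with 292, Zfp830 with 294 and Zfp58 with 299. Since the control mRNA reads chose the genes, every comparison that uses those 3 libraries is given as a description only.

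The livers came from wild-type male C57BL/6 mice aged 16 weeks, after 8 weeks on normal chow (control), on a high-fat diet (HFD) or on a high-fat diet plus lycopene, the red carotenoid of tomato (HFD+LYC). Each diet had 3 livers, and each liver gave 2 libraries of polyadenylated RNA: one from total RNA (mRNA) and one from the ribosome-nascent chain complex (RNC), the ribosomes with their mRNA and growing protein, pelleted through sucrose after lysis with cycloheximide, which stalls elongation. The 18 libraries held 4533729 to 12742436 reads. RNC against mRNA of a diet compares how much of a transcript was found with ribosomes relative to how much was found at all, each scaled within its own library.

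Most proteins of this family carry C2H2 zinc fingers, short loops in which a pair of cysteines and a pair of histidines hold a zinc ion, and rows of fingers read DNA base by base. Many also carry a KRAB domain, which recruits Trim28 (KAP1) and through it the histone methyltransferase Setdb1 to silence retroelements and imprinted regions. KRAB zinc finger genes are known to lie in clusters of near-copies that arose by duplication. Others of the family have left DNA behind and act on RNA, ribosomes or ubiquitin.

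A finger pattern was found by translating the coding sequence of 123 of the 127 genes, with a median of 9 per gene and a maximum of 36 in Zfp142. None was found in Zfp330, Zfp750, Zfp839 and Zfp972. A KRAB pattern was present in 52 genes, with a median of 12 fingers, and absent from 75, with a median of 7. Such a pattern is a short match and can miss a domain, so genes without it may still carry KRAB. A SCAN pattern searched in the same way missed Zfp263, named below as a SCAN domain factor. Clustering was common: 78 of the 127 had another Zfp gene within 500 kb, and chromosomes 7, 17 and 2 held 28, 18 and 11 of them. Reads of near-identical neighbours may have been split or shared when the authors counted them, and strand was not stated, so levels of clustered genes are uncertain.

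RefSeq promoter windows, from 250 bases before to 50 after a start, were matched for 105 of the genes (131 windows, GRCm38.p6). A 12-base stretch, CTGCCAGTCAGA, picked after the windows were read because it was shared by the most genes, occurred on either strand in the windows of 8 of the 105 (7.62%): Zfp932, Zfp950, Zfp967, Zfp970, Zfp971, Zfp972, Zfp975 and Zfp976. Among all 32851 windows it was in 65 (0.198%), and 41 of the 48 other genes holding it also had Zfp or Gm names. Of the 8 genes, 7 had the KRAB pattern. The 160 bases before the start of 5 of them are shown to let the copies be compared across 3 chromosomes, 5′ to 3′ on the gene's strand, with the shared stretch in capitals. Zfp967 lies at chr2:176520844-176521003 on the plus strand, Zfp970 lies at chr2:177464582-177464741 on the plus strand and Zfp971 lies at chr2:178023124-178023283 on the plus strand. Zfp932 lies at chr5:109996350-109996509 on the plus strand, and Zfp976 lies at chr7:42642605-42642764 on the minus strand.
Zfp967: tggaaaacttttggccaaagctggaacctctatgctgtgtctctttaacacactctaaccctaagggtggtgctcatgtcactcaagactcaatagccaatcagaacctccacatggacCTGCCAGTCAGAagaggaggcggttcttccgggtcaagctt
Zfp970: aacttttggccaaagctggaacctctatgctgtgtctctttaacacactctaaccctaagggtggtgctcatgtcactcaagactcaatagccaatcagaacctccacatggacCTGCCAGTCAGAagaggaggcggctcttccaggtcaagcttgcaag
Zfp971: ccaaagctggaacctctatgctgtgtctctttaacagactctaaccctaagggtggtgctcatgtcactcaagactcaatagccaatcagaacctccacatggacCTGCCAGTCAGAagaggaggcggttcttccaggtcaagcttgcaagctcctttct
Zfp932: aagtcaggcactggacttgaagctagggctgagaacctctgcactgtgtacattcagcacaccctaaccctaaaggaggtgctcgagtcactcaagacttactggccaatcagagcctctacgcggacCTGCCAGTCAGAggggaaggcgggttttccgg
Zfp976: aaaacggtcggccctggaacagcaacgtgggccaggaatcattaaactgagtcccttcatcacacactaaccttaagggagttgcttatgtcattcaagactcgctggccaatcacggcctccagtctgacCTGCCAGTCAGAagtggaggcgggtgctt
Laid with the stretch at the same place, without gaps, the 3 chromosome 2 windows were the same at 98.6% to 98.7% of bases. Those of Zfp932 and Zfp976 were the same as the others, and as each other, at 67.6% to 73.7%. The stretch began 29 to 55 bases before the annotated start. The match describes these letters and is no evidence of a bound factor. Of 9 known motifs searched, the ETS core CGGAAG was in 38.2% of the windows, against 29.4% over all genes tested and 16.9% over all windows of this length. The CCAAT box was in 45% against 37.8% and 37.4%, and the YY1 core AAGATGG in 9.92% against 7.01% and 6.34%. All were searched on both strands, and some can overlap in a few letters, as CGGAAG and AAGATGG do in AAG. The Zfp143 core ACTACAA was in 5.34% against 4.19% and 3.24%. The other 5 were in a smaller share of these windows than of those of genes tested: the NRF1 core GCGCATG (4.58% against 6.54%), the CRE core TGACGTC (4.58% against 5.11%), TATAAA (5.34% against 7.6%), the E-box CACGTG (8.4% against 9.86%) and the D-box part TTATGTA (1.53% against 1.6%). Over all windows those 5 were in 3.91%, 3.21%, 13.6%, 7.15% and 2.63%. The median window held 16 CG pairs, against 20 for genes tested and 7 over all windows.

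The 3 HFD+LYC RNC libraries stood apart before any result. They held reads on 8940, 9567 and 10037 genes, against 13324 to 15332 in the other 15, and 70 to 112 genes with a single read. HFD+LYC mRNA 2 also stood apart, with 189 genes with a single read, against 614 to 861 in the other 14. No Zfp gene of the set was at 0 in any of the other 15 libraries. In HFD+LYC RNC 1, 2 and 3 the number at 0 was 39, 32 and 26 of 127 (30.7%, 25.2% and 20.5%). Among 9300 other genes within the same range of RNC reads it was 22.7%, 17.2% and 14.4%. That range ran from a mean of 17.8 to 1141 reads in control and HFD RNC, and genes were not matched within it. The median gene of the set had 48 to 88 reads in those libraries. The part of low counts in the difference was not tested. Diet and the making of these 3 libraries cannot be told apart, so each result on them below describes the libraries with that label. Summed CPM (read counts scaled by library size with TMM, edgeR's normalization) of the 6 hepatocyte markers was 109000 to 412000 there. Control and HFD RNC held 67500 to 104000. HFD+LYC RNC 1, with the 412000, had a TMM factor of 0.428 (0.314 in the fit of all 18 libraries). HFD+LYC RNC 2 and 3 had 1.15 and 0.836, and control and HFD RNC 1.07 to 1.34. A factor under 1 raises every CPM of its library, so part of the 412000 is scaling. Summed endothelial markers (6) were 27.0 to 35.9 CPM in HFD+LYC RNC against 78.9 to 96.6 in HFD RNC, stellate markers (6) 41.0 to 71.4 against 176 to 218, and Kupffer markers (7) 84.5 to 143 against 177 to 318. Among lymphocyte markers Cd79a, Ms4a1 and Nkg7 were at 0 there. The part of these shifts in the results was not tested. In whole liver, fewer cells of a type and less RNA per cell cannot be told apart.

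The 127 genes took 0.3185%, 0.7246% and 0.3948% of mRNA reads with chow, 0.5816%, 0.5668% and 0.2525% with HFD, and 0.6033%, 0.9125% and 0.3975% with HFD+LYC. Of RNC reads they took 0.1494%, 0.134% and 0.1221% with chow, 0.1657%, 0.1373% and 0.1349% with HFD, and 0.04055%, 0.1484% and 0.09561% with HFD+LYC. Every RNC library lay below every mRNA library, and the mRNA livers of a diet differed among themselves by more than the diets did. Control liver 2 and HFD+LYC liver 2, with the highest shares, had the lowest summed hepatocyte markers of the 9 mRNA libraries (33000 and 22400 CPM). HFD liver 3, with the lowest mRNA share, had 106000 CPM. After scaling, the median gene of the set stood 0.52 (log2) above its own mean over the 9 mRNA libraries in control liver 2, where 115 of 127 genes were above it, and 0.66 below in HFD liver 3, where only 17 were. The median over all genes moved by 0.00 to 0.04. The part of hepatocyte content in this was not tested.

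**Figure D1:**
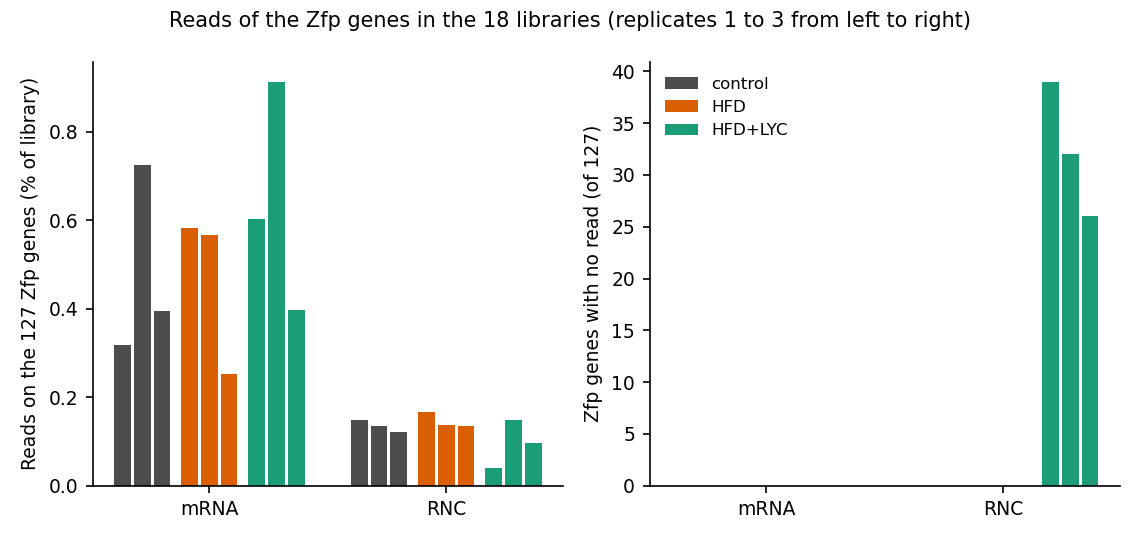
Percent of each library's reads on the 127 Zfp genes (left, bars, replicates 1 to 3 of each diet) and number of the 127 genes with no read (right, bars). RNC bars lie below all mRNA bars, and genes with no read (39, 32 and 26) occur only in the 3 HFD+LYC RNC libraries.

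Levels per transcript length are given in RPKM (reads scaled by transcript length and library size), the deposited unit. Over the 127 genes the mean control mRNA level had a median of 6.93 RPKM and ran from 1.92 to 75.4, and the mean control RNC level had a median of 1.9 RPKM. The 5 genes with the highest control mRNA level were Zfp707, Zfp467, Zfp488, Zfp207 and Zfp950. Zfp707 stood at 40.0, 114.4 and 71.8 RPKM in control livers 1 to 3 (75.4 ± 37.4, SD, n = 3), and Zfp467 at 42.6, 73.1 and 39.2 RPKM (51.6 ± 18.7). The deposited transcript length of Zfp467, 965 bases, is shorter than its coding sequence of 594 codons. Its RPKM may therefore be too high, and its place among the 5 is uncertain. Zfp488, a factor known from oligodendrocyte differentiation, stood at 33.8, 66.7 and 44.2 RPKM (48.2 ± 16.8). Liver 2 was highest for each of these 3, and their ranges overlapped, so no order among them exceeds the spread. Zfp207 (BuGZ, a spindle assembly factor that binds Bub3) stood at 34.3, 43.4 and 40.9 RPKM (39.5 ± 4.69) and Zfp950, a KRAB gene, at 26.6, 45.8 and 39.4 RPKM (37.3 ± 9.77). In control RNC the means were 15.3, 16.1, 11.9, 21.3 and 3.11 RPKM in the same order, so that Zfp207 was the highest of the 5 and Zfp950 the lowest.

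In mRNA, lycopene added to the high-fat diet went with a rise of Zfp575 and a fall of Zfp367, and edgeR called no other gene of the 127, while DESeq2 called 8 and edgeR with no filter on low counts called 4. A block on the replicate number called more than either, mostly higher, as given in the closing section. The shares of all genes called in these alternatives are not given. The test was edgeR's quasi-likelihood test with Benjamini-Hochberg adjustment over all 12664 genes and a threshold of 0.05, by which 2.91% of all genes were called (1.99% higher, 0.916% lower). Zfp575 stood at 15.3, 12.8 and 11.1 CPM in the HFD livers and at 60.7, 49.3 and 36.2 CPM in the HFD+LYC livers. The groups did not overlap, and the control livers (15.8, 14.5 and 15.2 CPM) lay with HFD. The mean was 48.7 ± 12.3 against 13.04 ± 2.13 CPM (SD, n = 3 each), 3.73-fold higher (log2 1.90, SE 0.27, adjusted p = 0.00703), and the call held in 15 of 15 alternatives. Without HFD+LYC mRNA 2 its log2 change was 1.89 (edgeR adjusted p = 0.0245). In RNC the same gene was at 8.10, 4.68 and 5.48 CPM in HFD and at 0.414, 5.56 and 0 CPM in HFD+LYC, so the RNC libraries showed no rise (log2 -1.62, adjusted p = 0.364).

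Zfp367 was at 24.3, 26.3 and 26.4 CPM in HFD mRNA and at 13.4, 9.78 and 10.7 CPM in HFD+LYC. All HFD+LYC livers lay below all HFD and control livers, the latter at 25.9, 38.0 and 29.7 CPM. The mean fell from 25.7 ± 1.19 to 11.3 ± 1.89 CPM, 2.27-fold (log2 -1.18, SE 0.26, adjusted p = 0.034). This call was lost in 8 of 15 alternatives: adjusted p = 0.0507 with only the compared libraries in the fit, and 0.0669 to 0.113 without control mRNA 3 or without any 1 of the 6 compared libraries (log2 -1.09 and 0.113 without HFD+LYC mRNA 2). Over the 127 genes the median change was 0.02 (log2), against -0.04 over all genes. Summed cholangiocyte markers (5) were 137 to 178 CPM in HFD mRNA and 31.7 to 49.9 in HFD+LYC, and their part in these changes was not tested. The median SE of a log2 change in the set was 0.38, so a miss of the threshold does not show that a gene did not change.

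Against control mRNA, which chose the genes, edgeR called 0 of the 127 in HFD (0.0158% of all genes), with 1 at an unadjusted p under 0.05 (2.83% of all) and 0 by DESeq2 and by limma-voom. In HFD+LYC it called 6 (5.54% of all genes, 3.31% higher and 2.23% lower). Those 6 were Zfp575 and Zfp750 on the higher side and Zfp367, Zfp386, Zfp760 and Zfp943 on the lower. Both diets were compared with the same control livers.

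**Figure D2:**
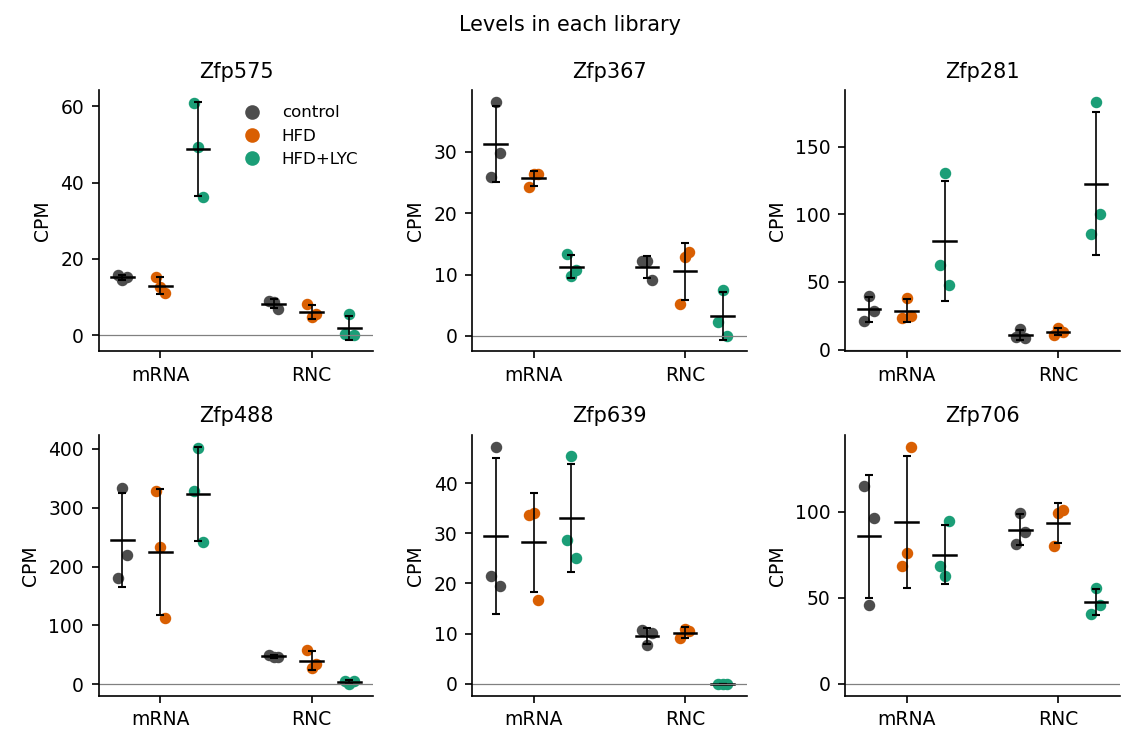
CPM of 6 Zfp genes in every library (points), with the group mean and SD (bars), for mRNA and RNC of the 3 diets; mRNA and RNC were scaled separately, so levels are compared within a kind. Zfp575 mRNA is higher (36.2 to 60.7 CPM) and Zfp367 mRNA lower in HFD+LYC, Zfp281 RNC is higher, and Zfp639 RNC is at 0 there.

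Zfp transcripts were found with ribosomes less than the typical liver transcript in HFD livers, as a group and with only 1 gene passing the test by itself. In the fit of all 18 libraries, 117 of 127 genes (92.1%) had a lower level in RNC than in mRNA, against 52.3% of all 12872 genes. The 127 were chosen on control mRNA reads. All genes tested were not held to that limit of 300 reads, which 7434 genes reached. The part of this choice in the difference was not tested. Summed hepatocyte markers differed between the HFD livers, at 48700 to 106000 CPM in mRNA and 67500 to 96400 in RNC. For these sums mRNA and RNC were scaled separately, so they are compared within a kind only. The TMM factors of HFD mRNA were 0.872 to 1.14 there and 1.19 to 1.59 in the fit of the ratio. Those of HFD RNC were 1.14 to 1.34 and 0.8 to 0.95. A larger factor lowers a CPM, so on the scale of the ratio mRNA sums are lower and RNC sums higher. The part of hepatocyte markers in the ratio was not tested. The median log2 ratio was -1.08 (2.11-fold lower), with the middle of the set from -1.66 to -0.48, against -0.05 over all genes. Another scaling (DESeq2's size factors) moved the 2 medians to -1.19 and -0.18, and the distance between them, -1.02, was the same. An unadjusted p under 0.05 on the lower side was reached by 52 genes (40.9%, against 12.5% of all), and the 3 RNC values lay wholly below the 3 mRNA values for 66 (52%, against 18.5%). Wholly above were 5, where the share of all genes was 16.6%.

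By the adjusted p, 1 of the 127 was called, Zfp950, where 0.101% of all genes were called. Zfp950 was at 87.4, 76.4 and 36.7 CPM in HFD mRNA and at 20.6, 7.14 and 11.6 CPM in HFD RNC. All RNC values lay below all mRNA values, with a mean of 13.1 ± 6.84 against 66.8 ± 26.7 CPM, 5.18-fold lower (log2 -2.37, SE 0.43, edgeR adjusted p = 0.0405). The call was lost in 10 of 25 alternatives, and with the liver as a block the adjusted p was 0.15 and 0 genes of the set were called. The count moved with the libraries that entered the fit: 62 were called, all lower, without the 3 HFD+LYC RNC libraries (48.8% against 10.9% of 12801 genes), 20 with the 6 HFD libraries alone (15.7% against 3.23%) and 38 with DESeq2 (29.9% against 6.49%). With 1 library left out, the shares of all genes called are not given. The count was then 17 without HFD mRNA 3, 9 without HFD+LYC RNC 2 and 7 without HFD+LYC RNC 1. It was 2 without HFD RNC 1 or HFD+LYC RNC 3, and 0 without control mRNA 3, HFD mRNA 1 or 2, HFD+LYC mRNA 1, HFD RNC 2 or 3 or any 1 control RNC library. The median of the set stayed between -0.90 and -1.30 when 1 library was left out.

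Liver by liver, the median log2 ratio of the set was -1.15, -1.48 and -0.48 in HFD livers 1 to 3, where the median of all genes was -0.05, -0.05 and -0.06. In control livers 1 to 3, as a description, it was -0.69, -1.72 and -1.11. Liver 2 had the lowest value in both diets, and HFD liver 3 had the value nearest 0. The summed hepatocyte markers of the mRNA libraries also differed between livers. They were 48700, 59500 and 106000 CPM in HFD livers 1 to 3 and 115000, 33000 and 78600 CPM in control livers 1 to 3. The RNC libraries of both diets, scaled separately, held 67500 to 104000. The liver with the highest mRNA sum had the ratio nearest 0 in each diet. The liver with the lowest sum had the lowest ratio in control (liver 2) but not in HFD (liver 1). In HFD+LYC livers 1 to 3 the sums were 46000, 22400 and 83000 CPM, with ratios of -2.39, -1.84 and -1.47. The part of hepatocyte content in the ratio was not tested. In the 6 control and HFD livers together, 96 of 127 genes (75.6%) were below 0 in every liver and 28 were mixed. This too is a description, since control mRNA reads chose the genes. Over all genes, which were not held to the read limit, 3445 of 12872 (26.8%) were below 0 in every liver. Above 0 in every liver were Zfp706, Zfp622 and Zfp91. In control livers 118 of 127 genes were below 0 with a median of -1.24, and 7 were called lower (2.13% of all genes were called, 0.0155% higher and 2.11% lower): Zfp950, Zfp433, Zfp715, Zfp276, Zfp948, Zfp236 and Zfp760. For the change of the ratio from control to HFD, edgeR called 0 genes of the set (0% of all), DESeq2 and limma-voom called 0, and 0 had an unadjusted p under 0.05 (0.155% of all).

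**Figure D3:**
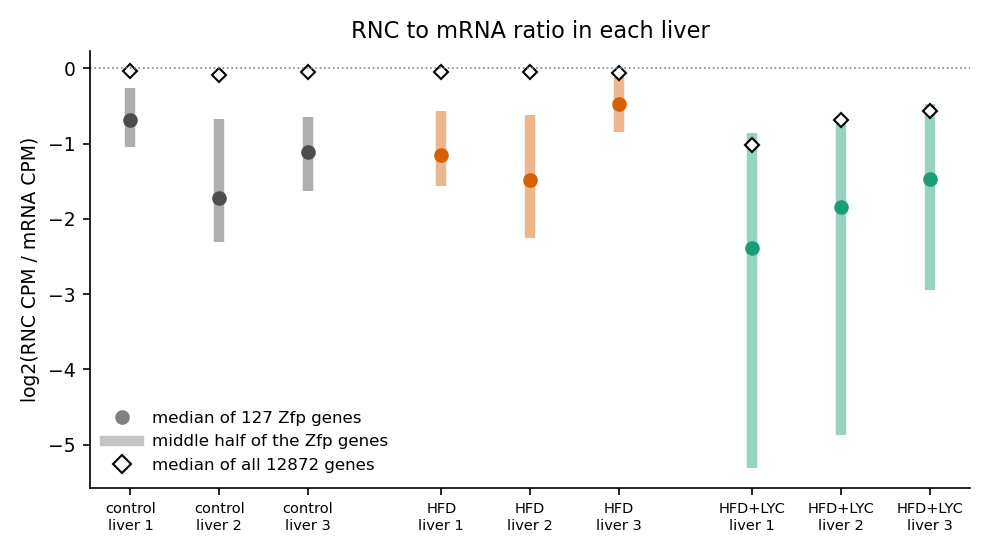
log2 ratio of RNC to mRNA CPM in each of the 9 livers: filled points are the median of the 127 Zfp genes, bars the middle part of the set between its lower and upper quartiles, open diamonds the median of all 12872 genes. The Zfp median lies below the all-gene median in every liver, by the least in HFD liver 3 (-0.48 against -0.06), and the all-gene median is lower in the 3 HFD+LYC livers (-0.57 to -1.02) than in the other 6.

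By role, the 23 genes with a listed role fell into 4 groups. Among 5 genes of translation and RNA the median HFD log2 ratio was -0.08. Zfp622, a factor of cytoplasmic maturation of the large ribosomal subunit, stood at 16.4, 15.6 and 20.6 CPM in mRNA and at 29.6, 26.7 and 30.0 CPM in RNC. Its RNC values all lay above its mRNA values (log2 0.72, edgeR adjusted p = 0.189). Zfp598, the ubiquitin ligase that marks collided ribosomes, stood at 183.2, 88.9 and 44.3 CPM in mRNA and at 56.5, 18.8 and 24.7 CPM in RNC. Each liver had less in RNC than in mRNA, though the groups overlapped (log2 -1.67, edgeR adjusted p = 0.157). Zfp106, an RNA-binding protein needed by motor neurons and muscle, had -0.08, Zfp326 of the DBIRD complex 0.06, and Zfp638, a nuclear RNA-associated protein, -0.81.

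The 3 genes of ubiquitin, SUMO and mitosis had a median of -0.19. Zfp91, a ubiquitin ligase of the noncanonical NF-kB pathway, was at 63.2, 66.9 and 71.4 CPM in HFD mRNA and at 74.8, 83.3 and 87.4 CPM in HFD RNC, with all RNC values above (log2 0.29, edgeR adjusted p = 0.523). Zfp207 had -0.19 and the SUMO ligase Zfp451 -0.98. Zfp706, a small protein with 1 finger pattern that embryonic stem cells need to leave self-renewal, was at 49.1, 54.7 and 101.3 CPM in HFD mRNA and at 113.9, 139.6 and 143.2 CPM in HFD RNC. It had the highest ratio of the 127 (log2 0.95, edgeR adjusted p = 0.142), again with no overlap.

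Of the 12 sequence-specific regulators, all 12 were below 0, with a median of -0.91 and none called. Near 0 were Zfp281 (-0.13) and the related Zfp148 (-0.23), both binders of GC-rich promoters. Zfp410, the activator of Chd4, had -0.46, Zfp217, a repressor that binds CtBP, -0.60, Zfp644, a partner of the methyltransferase G9a, -0.79, Zfp143, an activator of housekeeping promoters, -0.85, and Zfp592 of the Z3 complex -0.97. Furthest down were Zfp292 (-1.78), Zfp395 (-1.64), Zfp335 of H3K4 methyltransferase complexes (-1.62), the SCAN domain factor Zfp263 (-1.58) and Zfp384, a binder of A-rich DNA (-1.45). The 3 silencers had a median of -1.17. Zfp445, which keeps imprints, was at 313.0, 217.7 and 72.6 CPM in HFD mRNA and 79.1, 31.3 and 37.0 CPM in HFD RNC (log2 -2.04, edgeR adjusted p = 0.0898). Zfp568, which silences a placental Igf2 promoter, had -1.17 and Zfp809, which silences murine leukaemia viruses, -1.05. Another 8 genes with a listed role were below 300 reads: Zfp57, Zfp69, Zfp125, Zfp346, Zfp516, Zfp609, Zfp687 and Zfp703.

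Genes with more fingers had lower ratios, given here as a description. The 62 genes with at least 10 finger patterns had a median HFD log2 ratio of -1.38, the 61 with 1 to 9 had -0.85, and the 4 with none had -0.45. The 52 genes with a KRAB pattern had -1.34, with 50 below 0, and the 75 without it -0.85, with 67 below 0. Genes with another Zfp gene within 500 kb (78) had -1.29 and the others (49) -0.81. The 8 genes with the promoter stretch shown above had -1.85, all below 0. Across the 127 genes, which share libraries and in part sequence, Pearson's r between finger number and ratio was -0.38 and Spearman's rho -0.39. With the number of codons they were -0.15 and -0.19, with the deposited transcript length 0.05 and 0.03, and with the mRNA level -0.08 and -0.07. That length is shorter than the coding sequence in some genes, such as Zfp467 and Zfp638. These features overlap (KRAB genes also carry more fingers and lie in clusters), and their separate parts were not tested.

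**Figure D4:**
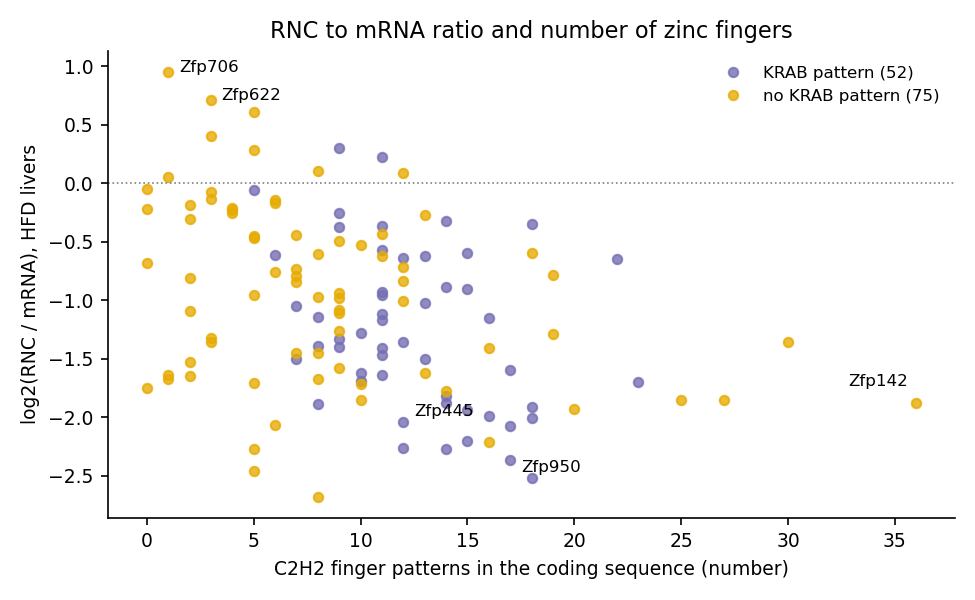
log2 ratio of RNC to mRNA in HFD livers (vertical) against the number of C2H2 finger patterns in the coding sequence (horizontal), 1 point per Zfp gene, 52 with and 75 without a KRAB pattern. Points above 0 are mostly genes with few fingers such as Zfp706 and Zfp622, and the median falls from -0.85 at 1 to 9 fingers to -1.38 at 10 or more.

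Between HFD and control RNC none of the 127 genes was called by edgeR, 0 reached an unadjusted p under 0.05 and DESeq2 and limma-voom called 0, where 0.00858% of all genes were called and 1.84% reached that p. The median change was 0.01 (log2) in the set and 0.01 over all genes, with a median SE of 0.73. The smallest p-values on the higher side belonged to Zfp236 (log2 0.67), Zfp809 (0.57) and Zfp972 (0.51). On the lower side they belonged to Zfp971 (-0.73), Zfp937 (-0.51) and Zfp395 (-0.54), and edgeR's adjusted p was 1 for all 6. Zfp971 was at 8.02, 10.3 and 8.92 CPM in control RNC and at 2.86, 6.20 and 7.19 CPM in HFD RNC, the only one of Zfp236, Zfp809, Zfp972 and Zfp971 whose groups did not overlap.

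Between HFD+LYC and HFD RNC, 2 of the 127 genes were higher and 16 lower. This was 14.2% of the set, where 26.8% of all genes were called (9.34% higher, 17.4% lower), so the set held no larger share of calls than the whole. The median change was -0.48 (log2) in the set and -0.29 over all genes. Zfp281 was at 10.8, 15.8 and 13.4 CPM in HFD RNC and at 85.1, 182.6 and 100.3 CPM in HFD+LYC RNC. All 3 HFD+LYC values lay above all HFD and control values (9.35, 15.3 and 8.69 CPM in control), with a mean of 123 ± 52.5 against 13.3 ± 2.48 CPM, 9.16-fold (log2 3.20, SE 0.38, edgeR adjusted p = 0.000557). In mRNA it was at 23.0, 38.4 and 24.6 CPM in HFD and at 62.4, 130.6 and 47.5 CPM in HFD+LYC, also without overlap (log2 1.48, edgeR adjusted p = 0.0719). Zfp992 was at 12.4, 3.797 and 8.62 CPM in HFD RNC and at 40.8, 31.1 and 37.6 CPM in HFD+LYC RNC, 4.46-fold higher and without overlap (edgeR adjusted p = 0.0089). For both genes the CPM of HFD+LYC RNC 1 is raised by its TMM factor of 0.428. HFD+LYC RNC 2, with a factor of 1.15, also lay above every HFD RNC library for both.

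On the lower side, 8 genes had no read in any of the 3 HFD+LYC RNC libraries: Zfp143, Zfp157, Zfp433, Zfp639, Zfp760, Zfp772, Zfp788 and Zfp948. They were 6.3% of the set, against 4.6% of other genes in the same range of reads, not matched within it. All of them had reads in the other 15 libraries. Zfp639, a regulator also known as ZASC1, was the most abundant of them in RNC, at 9.05, 11.01 and 10.5 CPM in HFD RNC. Against a floor of 3 reads over the group this made it at least 59.6-fold lower (edgeR adjusted p = 0.000547), while its HFD+LYC mRNA stood at 28.7, 45.4 and 25.1 CPM. For the other 7 the bound ran from at least 10.6-fold lower (Zfp788) to at least 19.4-fold lower (Zfp143 and Zfp433). Zfp143 had been at 5.40, 1.90 and 2.67 CPM in HFD RNC.

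Zfp488, among the most abundant in mRNA, was at 58.1, 27.5 and 33.6 CPM in HFD RNC and at 5.80, 0.767 and 5.49 CPM in HFD+LYC RNC. This was 9.76-fold lower (log2 -3.29, SE 0.58, edgeR adjusted p = 0.00405) with no overlap, while its mRNA overlapped between HFD (327.8, 232.9 and 112.9 CPM) and HFD+LYC (329.1, 401.0 and 241.6 CPM). Zfp706 was at 80.1, 99.0 and 100.9 CPM in HFD RNC and at 40.8, 55.8 and 45.9 CPM in HFD+LYC RNC, 1.96-fold lower (edgeR adjusted p = 0.00856). Zfp655 was at 34.8, 22.0 and 23.5 CPM in HFD RNC and at 3.10, 8.63 and 8.84 CPM in HFD+LYC RNC, 3.86-fold lower (edgeR adjusted p = 0.00813). Its mRNA was also lower in HFD+LYC, without overlap (27.6 ± 1.39 against 58.7 ± 25.8 CPM, log2 -1.09, edgeR adjusted p = 0.0842). The change of its RNC to mRNA ratio was not called (log2 -0.935, edgeR adjusted p = 0.255). For each of these 3 genes every HFD+LYC RNC library lay below every HFD one.

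The remaining 5 lower calls had few reads in HFD+LYC RNC or an adjusted p near the threshold. Zfp277 held 0, 5 and 0 reads in the HFD+LYC RNC libraries (edgeR adjusted p = 0.00712, and 0.0601 with only the compared libraries in the fit), and Zfp956 held 0, 0 and 1 (0.00778). Zfp148 was at 19.9, 17.9 and 20.1 CPM in HFD RNC and at 2.69, 12.5 and 4.82 CPM in HFD+LYC RNC (edgeR adjusted p = 0.0444). Zfp946 (0.0389) and Zfp68 (0.0442) were near the threshold too, and Zfp148, Zfp946 and Zfp68 each lost the call in 8 of 15 alternatives. Without HFD+LYC RNC 1, 2 or 3 the number called in the set was 28, 32 and 33 in place of 18, so that leaving out any 1 of those libraries raised it. The shares of all genes called in those runs are not given, so the rise is not read as a trait of the set.

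Against control RNC the HFD+LYC libraries had 4 genes higher and 17 lower (16.5% of the set, where 26.3% of all genes were called, 9.23% higher and 17.1% lower). Both HFD+LYC comparisons share the HFD+LYC libraries. The calls beyond those against HFD were Zfp972 and Zfp809 on the higher side, lost in 3 and 7 of 15 alternatives, and Zfp110 and Zfp386 on the lower side, lost in 7 and 9 of 15, while Zfp68 was not called. Of the genes called in both comparisons, Zfp148 lost the call against control in 12 of 15 alternatives, Zfp946 in 8, Zfp655 in 5, Zfp992 in 2, and Zfp277 and Zfp706 in 1 each. Zfp972 was at 3.44, 5.01 and 4.42 CPM in control RNC and at 19.9, 23.8 and 15.5 CPM in HFD+LYC RNC, with no overlap (log2 2.20, edgeR adjusted p = 0.0184). The silencer Zfp809 was at 10.5, 5.80 and 5.74 CPM and at 15.1, 31.1 and 24.9 CPM (log2 1.69, edgeR adjusted p = 0.044). Zfp110 stood at 16.2, 18.6 and 15.4 CPM in control RNC and at 8.28, 5.75 and 2.54 CPM in HFD+LYC RNC, all below control. The count of 21 fell to 12 without control RNC 2 and rose to 33 and 37 without HFD+LYC RNC 2 and 3, with the shares of all genes not given.

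**Figure D5:**
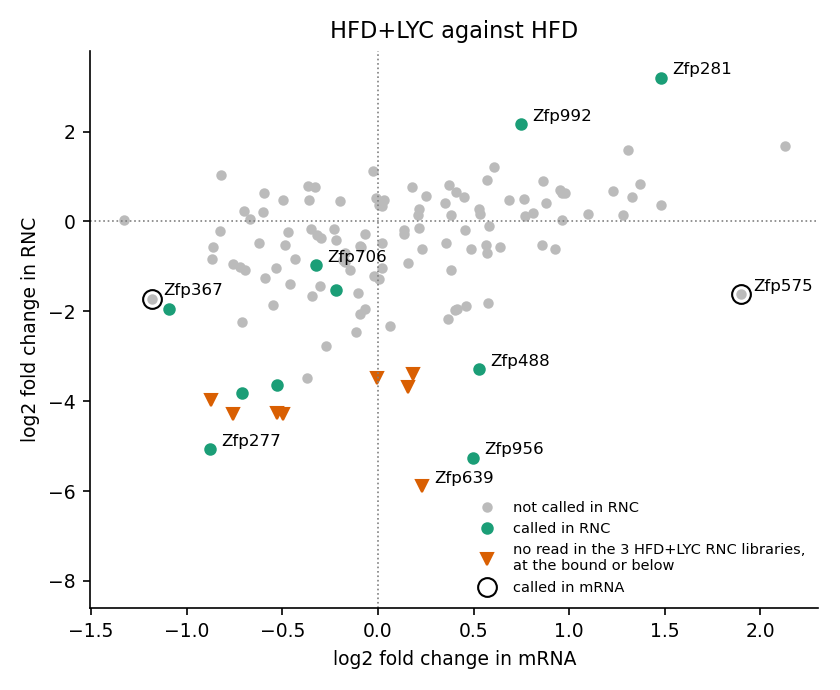
log2 fold change of HFD+LYC against HFD in RNC (vertical) and mRNA (horizontal), 1 point per Zfp gene; green points were called in RNC, ringed points in mRNA, and triangles are genes with no read in the 3 HFD+LYC RNC libraries, drawn at the bound set by 3 reads. Zfp281 and Zfp992 lie at the top, and Zfp575 is far right in mRNA but not called in RNC.

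Within HFD+LYC livers, RNC against mRNA called 3 of the 127 genes higher and 73 lower (57.5% of the set lower, where 43.4% of all genes were called, 30.6% lower and 12.8% higher). The median log2 ratio was -1.72 in the set and -0.51 over all genes. By liver it was -2.39, -1.84 and -1.47, with all genes at -1.02, -0.68 and -0.57. The higher genes were Zfp281 (log2 1.51), Zfp992 (1.55) and Zfp945 (1.44). Zfp281 was at 45.4, 92.4 and 34.9 CPM in HFD+LYC mRNA and at 115.9, 240.1 and 137.3 CPM in HFD+LYC RNC, without overlap. Zfp945, in contrast, was at 8.26, 12.9 and 9.31 CPM in mRNA and at 47.9, 27.2 and 7.70 CPM in RNC, with liver 3 going the other way. Among the 73 lower genes were Zfp488 (log2 -5.40), Zfp276 (-3.46), Zfp715 (-2.76), Zfp445 (-2.17) and Zfp598 (-2.10). With the 6 HFD+LYC libraries alone 22 genes of the set were called, 21 of them lower, and the share of all genes in that fit is not given.

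The change of that ratio from HFD to HFD+LYC, tested as an interaction in the 18-library fit, called 1 gene higher and 15 lower. This was 12.6% of the set, where 16.4% of all genes were called (3.42% higher, 13% lower). The median change was -0.60 in the set and -0.41 over all genes, and the per-liver ratios lay wholly lower in HFD+LYC for 29 genes (22.8%, against 25.1% of all). Of the 15 lower genes, 13 were also called lower in RNC, and the other 2 were Zfp575 and Zfp952. Zfp952 was at 13.1, 11.8 and 6.32 CPM in HFD mRNA and 8.47, 8.74 and 6.89 CPM in HFD+LYC mRNA, and at 4.97, 4.02 and 3.50 CPM in HFD RNC and 0, 0 and 0.916 CPM in HFD+LYC RNC. The number called was 25 and 31 without HFD+LYC RNC 2 and 3, with the shares of all genes not given.

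The partners of KRAB zinc fingers, a list of 31 corepressor and heterochromatin genes of which 30 were tested in mRNA, were called 0 times between HFD+LYC and HFD mRNA. Their median change was 0.30 (log2), with 20 above 0 and 10 below. Trim28, the corepressor that KRAB domains bind, was at 67.7, 72.7 and 51.7 CPM in HFD mRNA and at 116.6, 119.9 and 88.8 CPM in HFD+LYC mRNA. Its groups did not overlap, but it missed the threshold (log2 0.76, edgeR adjusted p = 0.182). In RNC it was at 23.7, 19.9 and 19.8 CPM in HFD and at 3.52, 19.8 and 18.6 CPM in HFD+LYC, where liver 1 stood apart (log2 -0.59, edgeR adjusted p = 0.464). Setdb1, the histone methyltransferase that Trim28 recruits, had a log2 change of 0.48 in mRNA (edgeR adjusted p = 0.453) and -0.45 in RNC (0.554). In HFD RNC against mRNA 24 of the 30 were below 0, with a median of -0.61 and none called, so the list lay between the Zfp genes (-1.08) and all genes (-0.05).

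Between HFD+LYC and HFD RNC, 3 of 29 tested partners were higher (10.3%, against 9.34% of all genes) and 4 were lower (13.8%, against 17.4%), shares near those of the whole. The higher ones were Chd4 (log2 1.15) and Mbd3 (1.42), both of the NuRD remodelling complex, and the methyltransferase Ehmt2 (1.68). The lower ones were the deacetylases Hdac1 (-3.01) and Hdac2 (-2.49), the heterochromatin protein Cbx3 (-3.18) and the modifier Sumo2 (-2.97). In HFD+LYC RNC 1 to 3 Hdac1 was at 2.48, 0 and 2.54 CPM and Hdac2 at 0, 8.25 and 7.36 CPM. Cbx3 was at 0, 14.96 and 1.61 CPM there and Sumo2 at 16.6, 4.41 and 0.937 CPM. The folds of these lower genes thus rest on values at 0 or far apart. Other zinc finger families also had HFD ratios below 0 without a call: Zbtb genes had a median of -0.68 (31 of 38 below 0), Zkscan and Zscan genes -0.82 (17 of 17), and Klf and Sp genes -0.19 (11 of 18). In the 12 tested genes of ribosome quality control, the pathway in which Zfp598 acts, the median was 0.19, with 7 above and 5 below 0 and none called. Ltn1, the ubiquitin ligase of stalled chains, was at 9.85, 14.2 and 15.8 CPM in HFD RNC and at 0, 2.49 and 0 CPM in HFD+LYC RNC. It was called lower (log2 -4.04, edgeR adjusted p = 0.0234), as were 17.4% of all genes. Its fold rests on 1 HFD+LYC RNC library with reads.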

How the data were processed

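Polyadenylated mRNA and RNC RNA of 9 mouse livers were sequenced in 18 libraries. Per the labels and the series' design, the authors mapped reads to RefSeq RNA sequences, and per the file headers they deposited, per gene with splice variants merged, the raw read count, the longest transcript's length (another value, for description only) and RPKM. Build mm10 and bcl2fastq are named in the submitters' processing notes, while the aligner was not given in the sources used here.

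Each gene's counts were tested with edgeR 4.0.16 in R 4.3.3 (TMM, filterByExpr with a minimum count of 10 and a minimum total of 15, robust quasi-likelihood F-test, Benjamini-Hochberg over all genes, threshold 0.05). Separate fits held the 9 mRNA libraries (12664 genes), the 9 RNC libraries (11660 genes) and all 18 libraries (12872 genes, for RNC against mRNA and its interaction with diet), so CPM differ between fits. All 127 members were tested in each. Per-liver ratios used a prior count of 2. The code was tested on simulated data. Alternatives were DESeq2 1.42.0, limma-voom (limma 3.58.1), RLE size factors, no filter, the compared libraries alone, a replicate block and leaving out each library, and, chosen after seeing the data, leaving out the 3 HFD+LYC RNC libraries.

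The 2 libraries of a diet and number carry the same animal code in the deposited names and were taken as 1 liver. Deviations of the 2 correlated at -0.036 to 0.51, over 0.1 for 3 of 9 livers. Per the series' design the livers are separate biological replicates.

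The members, roles and lists were chosen with earlier results of these data known. Named genes are members called in comparisons that do not use control mRNA (or else the 3 smallest p-values in each direction), the 5 highest in control mRNA, members with a listed role, the neighbours of the count limit, called list genes, Trim28 and Setdb1. Where 73 members were called, only some are named. Finger and KRAB patterns were read from coding sequences of GENCODE, and promoters are RefSeq's (GRCm38.p6).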

Additional observations from a re-analysis of the deposited data

Results flagged for a closer look

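For 16 genes the ratio of RNC to mRNA differed between HFD+LYC and HFD livers by the interaction test (edgeR's quasi-likelihood test, adjusted p under 0.05 over all genes). No read was found for 8 of them in the 3 HFD+LYC RNC libraries, and with those at the floor of 3 reads over the group the log2 change of the ratio was Zfp143 (-3.59), Zfp157 (-3.80), Zfp433 (-3.85), Zfp639 (-6.19), Zfp760 (-3.16), Zfp772 (-3.55), Zfp788 (-3.65) and Zfp948 (-3.90), each of them or lower. The others with a lower ratio, as fitted, were Zfp277 (-4.30), Zfp488 (-3.88), Zfp575 (-3.63), Zfp68 (-3.24), Zfp946 (-3.11), Zfp952 (-3.10) and Zfp956 (-5.81). Zfp281 had the only higher ratio (1.65), with an adjusted p that rounds to 0.05 and lies just under the threshold. It lost the call in 17 of 24 alternatives, Zfp68 and Zfp952 in 12 each, and Zfp575 and Zfp946 in 3 each. Leaving out 1 library moved some fitted values far: without HFD+LYC RNC 2, Zfp277 was at -9.28 and Zfp575 at -7.04. Without HFD+LYC RNC 1, Zfp68 was at -9.12, and without HFD+LYC RNC 3, Zfp946 was at -9.02, Zfp952 at -7.92 and Zfp956 at -8.55. The values nearest 0 were -3.60 for Zfp277, -2.99 for Zfp575, -2.55 for Zfp68, -2.56 for Zfp946 and Zfp952 and -5.33 for Zfp956. In Zfp575 the mRNA was higher in HFD+LYC livers while the RNC level was not, and in Zfp488 the mRNA overlapped while the RNC level was lower. All 16 rest on the 3 HFD+LYC RNC libraries, and diet and the making of those libraries cannot be told apart.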

How the results depend on the processing

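No called result changed direction under any alternative run. The medians near 0 took either sign when 1 library was left out: -0.16 to 0.24 for HFD+LYC against HFD mRNA and -0.16 to 0.13 for HFD against control RNC. The number of genes called in the set moved most, and why was not tested, beyond fewer libraries when some were left out. The counts below stand without the share of all genes in the same run, so they describe the set alone. For HFD+LYC against HFD mRNA it was 2, and 4 with no filter, 8 with DESeq2 and 1 to 3 without 1 library. For HFD+LYC against control mRNA it was 6, 17 with DESeq2 and 0 to 13 without 1 library. For HFD+LYC against HFD RNC it was 18, 30 with limma-voom (median log2 change -1.04 in place of -0.48) and 15 to 33 without 1 library. For HFD+LYC against control RNC it was 21, 33 with limma-voom (median -1.39) and 12 to 37 without 1 library. For RNC against mRNA in HFD livers it was 1, 38 with DESeq2, 20 with the compared libraries alone, 62 without the 3 HFD+LYC RNC libraries and 0 to 17 without 1 library. In control livers it was 7, 17 with RLE size factors, 52 with DESeq2, 89 with the compared libraries alone, 81 without the 3 HFD+LYC RNC libraries and 0 to 47 without 1 library. In HFD+LYC livers 76 became 22 with the compared libraries alone, and the median became -2.64 with limma-voom. For the change of the ratio from HFD to HFD+LYC it was 16, 32 with limma-voom (median -1.25) and 11 to 31 without 1 library.

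With a replicate block, the liver as the pair of mRNA and RNC, 0 genes were called in HFD livers and 0 in control livers, and the HFD+LYC median was -2.19. In diet comparisons the livers share only a number (same-numbered mRNA libraries of different diets correlated at -0.42 to 0.46, with 7 of 9 pairs over 0.1 against 4 of 18 with different numbers; RNC libraries at -0.063 to 0.33, with 2 of 9 against 2 of 18). There the block gave 14 calls (11 higher, 3 lower) for HFD+LYC against HFD mRNA, 17 against control mRNA, and a median of -0.77 against control RNC.

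Of the other values, 273 counts and medians stayed close to those reported, 2579 single-gene values kept their side of the threshold, and 269 lost the call. Members with few RNC reads set the limit of depth: changes of those at 0 are bounds only.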
